A study of Oncorhynchus mykiss with 23 samples.

Results

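Transcripts of slow and fast fibre proteins were followed in the trunk muscle of rainbow trout through a fast and the refeeding that came after it. The probes were found by name: every non-control probe of the array whose name in the scanner files held slow or fast, or named MLC1, MLC3 or fast myosin, in any case of the letters. This gave 6 of 60195 probes. The 2 slow fibre probes are called Slow (CUST_221_PI425708691) and slow (CUST_222_PI425708691). The 3 fast fibre probes are Fast_myosin (CUST_220_PI425708691), fast_mlc1 (CUST_218_PI425708691) and fast_mlc3 (CUST_219_PI425708691). The last probe, FYV3OTN01AFAST.s.om.10, is a sequence read whose name only happens to hold the letters, so it says nothing of fibre type. Names in the scanner files end at the first space, and which slow fibre protein Slow and slow measure is therefore not given in the sources used here. That they measure slow fibre proteins at all is taken from that word alone.

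The study asked which genes respond as growth resumes in fasted and refed trout. Fish of a 1-year-old spring strain were deprived of food for 30 days and sampled at the end of the fast (F0, n = 5), or fed again at 3 times the satiation ration and sampled after 4 days (RF4, n = 5), 11 days (RF11, n = 5) or 36 days (RF36, n = 4). Control trout (C0, n = 4) were fed to satiation throughout in another tank and were sampled when the fast of the others ended. In each contrast with C0 the tank, and for the refed fish also the sampling day, therefore cannot be told apart from feeding. In each contrast of refed fish with F0, the sampling day cannot be told apart from refeeding. Each array held RNA of a single fish, from a transverse slice of fast muscle below the dorsal fin, and the 23 arrays lay on 3 slides that each held several groups.

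Trunk muscle of fish keeps its fibre types apart. Fast, white fibres, which power bursts of swimming, make up most of the myotome, and slow, red fibres, used in sustained swimming, form a thin layer under the skin that is thickest along the lateral line. Each type builds its own set of myosin heavy chains, the motor proteins of the thick filament, and of light chains, which bind the neck of the heavy chain. MLC1 and MLC3 are the essential light chains of fast myosin, and in mammals both come from a single gene, MYL1, by alternative promoters.

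A level below is the log2 of a probe's processed signal minus the 75th percentile of that array, so that 1 unit is a doubling of signal between fish. Levels of different probes were not compared as amounts of transcript. The gap between the light chain probes is read only for its differences between fish. Between 45.2% and 67.2% of the spots of an array were well above background, the highest share being that of C0-1, and no spot was saturated. By group, the median share was 59.6% in F0, 56.6% in RF4, 55.8% in RF11, 49.5% in RF36 and 54.1% in C0. The part of this share in the results was not tested. The array C0-1 also stood apart in another way: the other 22 arrays each matched a column of the heat map given with the study (r of 0.982 or more over 1232 probes), whereas C0-1 reached no more than 0.595 with any column. Tests of the fast probes against the controls are given with and without it. The same was done for the slow probes and gene lists in F0 against C0. All 6 probes passed the filter for testing, which asked that 4 or more arrays of some group be well above background. The 3 fast fibre probes and Slow were well above background on 23 of 23 arrays, and slow on 15 of 23 (3 in F0, 4 in RF4, 4 in RF11, 2 in RF36 and 2 in C0), so that the lowest levels of slow are uncertain.

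The slow fibre probes varied more between fish of a feeding group than between feeding groups. The Slow probe stood at 4.85, 3.15, 4.76, -0.89 and 0.98 in F0-2, F0-3, F0-4, F0-5 and F0-7. In RF4-2, RF4-3, RF4-4, RF4-5 and RF4-7 it was 0.54, 7.30, -1.12, 1.77 and 0.93. In RF11-1, RF11-2, RF11-4, RF11-5 and RF11-6 it was -0.18, 0.67, 5.20, -0.30 and 0.77. Single fish were thus far above the rest of their group in RF4 and RF11, while F0 was split. In RF36-1 to RF36-4 the Slow probe lay close together, at 0.45, -0.10, -1.16 and 0.71. In C0-1 to C0-4 it was -1.29, -1.71, 8.97 and 0.92, so that C0-3 stood 9.66 log2 units above the mean of the other 3 controls. Its whole range over 23 fish was 10.68 log2 units, which is a 1638-fold span in signal, and both ends of it were control fish.

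The slow probe gave almost the same order of fish. It was -0.17, 0.21, 1.75, -2.89 and -2.93 in F0-2, F0-3, F0-4, F0-5 and F0-7, and -0.87, 3.76, -2.86, -0.90 and -1.99 in RF4-2, RF4-3, RF4-4, RF4-5 and RF4-7. It was -3.25, -0.82, 1.63, -1.52 and -1.51 in RF11-1, RF11-2, RF11-4, RF11-5 and RF11-6. It was -1.97, -1.73, -2.16 and -1.85 in RF36-1 to RF36-4, and -3.07, -3.34, 6.98 and -0.58 in C0-1 to C0-4. All groups overlapped on both probes. The 6 highest fish were the same on both: F0-2, F0-3, F0-4, RF4-3, RF11-4 and C0-3, and they came from all 3 slides (1, 3 and 2 fish). The refed group RF36 was the tightest, with an SD of 0.83 for Slow and 0.18 for slow, against 4.97 and 4.82 in C0. Since slow was well above background on only 2 arrays of RF36 and 2 of C0, its SD in these groups is uncertain. Without C0-3 the SD of the controls was 1.41 and 1.52. The muscle was a bulk sample, so more cells of a type and more RNA per cell cannot be told apart.

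**Figure D1:**
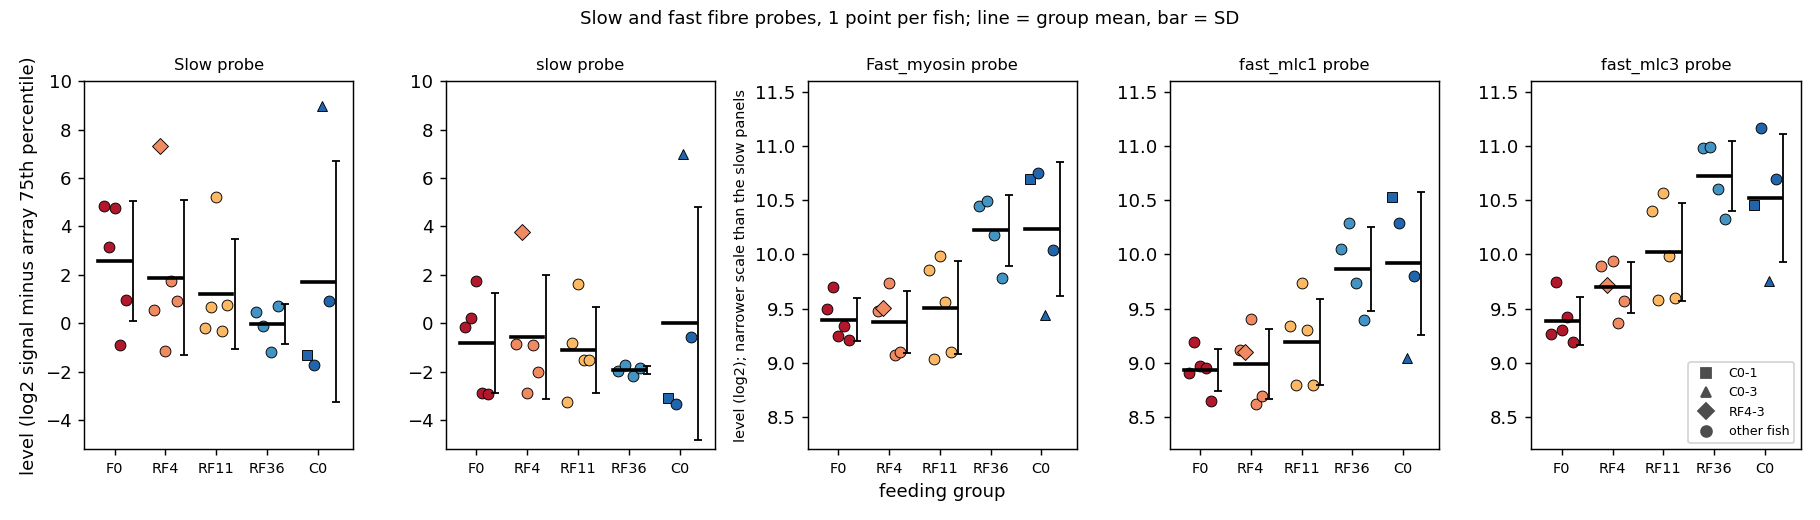
Level of each slow and fast fibre probe (log2 processed signal minus the array's 75th percentile) by feeding group, 1 point per fish, with the group mean as a line and the SD as a bar; the slow panels span a wider scale than the fast panels. C0-3 and RF4-3 stand highest on both slow probes (8.97 and 7.30 on Slow), while the means of the fast probes are lowest in F0 and RF4 and highest in RF36 and C0, an order that Fast_myosin (-0.01 in RF36 against F0) and fast_mlc3 (0.16 in RF11 against C0) lose under quantile normalization.

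The spread between fish of a feeding group, pooled over the 5 groups, was 3.01 log2 units for Slow and 2.64 for slow, against a median of 0.39 over all 34200 tested probes. These were the 6th and the 25th largest of all. Fast_myosin (0.39), fast_mlc1 (0.41) and fast_mlc3 (0.38) lay near that median. Conversely, the share of variance that lay between feeding groups was 9.11% for Slow and 6.16% for slow, and 57.3% for fast_mlc1, 68.1% for fast_mlc3 and 55.8% for Fast_myosin, with a median of 41.3% over all tested probes. The same arrays thus held fibre transcripts whose signal spread between fish of a group like that of a middling probe, and others whose signal spread more than that of nearly all probes.

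**Figure D2:**
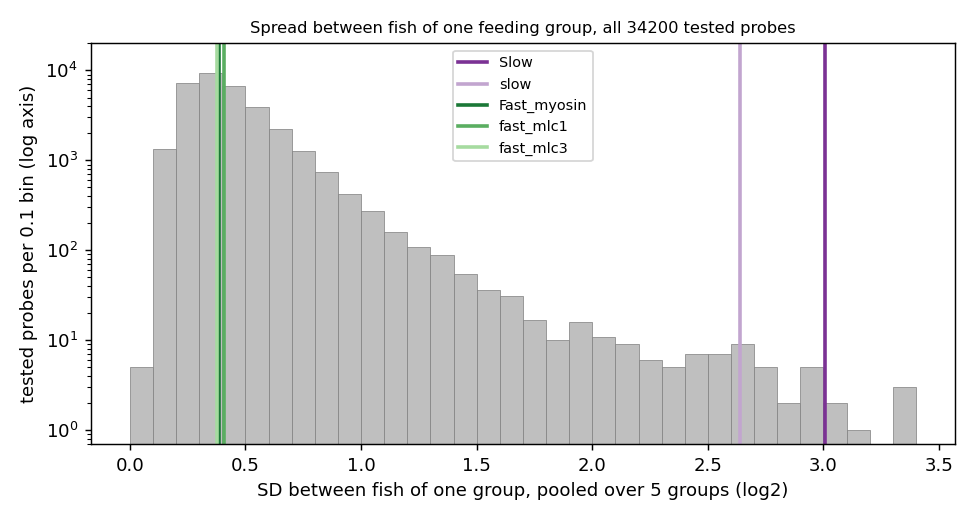
Histogram of the pooled SD between fish of a feeding group (log2, x axis) over the 34200 tested probes, with the number of probes per bin on a log axis and the 5 slow and fast fibre probes as vertical lines. Slow and slow lie in the far right tail at 3.01 and 2.64, and the 3 fast probes lie at 0.38 to 0.41, in the bulk of the probes.

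No feeding contrast of the slow probes passed the test. Each contrast was taken from a limma model of the 5 group means, with p-values adjusted by the Benjamini-Hochberg method over all 34200 tested probes and called below 0.05. The test across the 5 groups called 4 of the 6 probes (fast_mlc1, fast_mlc3, Fast_myosin and the letters-only read), where 45.8% of all tested probes were called, and neither slow probe (adjusted p = 0.742 for Slow and 0.858 for slow). Without C0-1 the same 4 probes were called (adjusted p from 0.000717 to 0.0178). With array medians as the scale Fast_myosin was not called across the groups (adjusted p = 0.0822). The deposited values have the same median on every array, so their adjusted p of 0.0822 repeats that scaling. Over the 14 differences of both slow probes in 7 contrasts, values ran from -2.59 to 0.85, with standard errors of 1.51 to 1.92 and adjusted p from 0.291 to 0.958. The 95% intervals were 6.25 to 7.96 log2 units wide, so that differences of several doublings in either direction were not detectable with these fish. Slow was 0.85 ± 1.82 (SE) higher in F0 than in C0 and slow was 0.81 ± 1.60 lower (log2 difference -0.81). Both of these depended on which control fish were included. Without C0-3 the differences were 3.26 (adjusted p = 0.140) and 1.52 (adjusted p = 0.431). Without C0-1 they were -0.16 (adjusted p = 0.975) and -1.83 (adjusted p = 0.538). A fit added after the data were seen left out both C0-3 and RF4-3. In it Slow differed by 3.26 in F0 against C0 (adjusted p = 0.0626) and by -2.59 in RF36 against F0 (adjusted p = 0.0819). For slow the same differences were 1.52 (adjusted p = 0.311) and -1.12 (adjusted p = 0.369), and none of these was called.

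The 3 fast fibre probes were lowest at the end of the fast and 4 days into refeeding and were highest after 36 days of refeeding and in controls. The level of fast_mlc1 was 8.91, 9.19, 8.97, 8.95 and 8.65 in F0 and 9.12, 9.10, 9.41, 8.62 and 8.70 in RF4, with the fish in the order given above. It was 9.34, 8.79, 9.73, 9.30 and 8.79 in RF11, 10.05, 10.29, 9.74 and 9.39 in RF36, and 10.53, 10.29, 9.04 and 9.80 in C0. Every RF36 fish was above every F0 fish, and C0-3, the control with the highest slow levels, was the only control fish inside the F0 range. How many of all tested probes separated groups in this way was not counted, so nothing is read from such separation here or below.

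The fast_mlc3 probe was 9.27, 9.75, 9.31, 9.42 and 9.19 in F0, 9.89, 9.72, 9.93, 9.36 and 9.57 in RF4, and 10.40, 9.57, 10.57, 9.98 and 9.60 in RF11. It was 10.98, 10.99, 10.60 and 10.33 in RF36 and 10.46, 11.17, 9.75 and 10.70 in C0. This was the only fast probe on which F0 and C0 did not overlap, with F0-3 and C0-3 less than 0.01 log2 units apart.

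Fast_myosin was 9.49, 9.70, 9.25, 9.34 and 9.21 in F0, 9.48, 9.51, 9.73, 9.07 and 9.10 in RF4, and 9.85, 9.04, 9.99, 9.56 and 9.10 in RF11. It was 10.45, 10.49, 10.18 and 9.78 in RF36 and 10.70, 10.75, 9.45 and 10.04 in C0. Here too C0-3 was the lowest control, within the range of F0, and all RF36 fish were above all F0 fish.

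All 3 fast probes were lower in fasted than in control fish. In F0 against C0, 3 of the 6 probes were called, all lower, where 20.3% of all tested probes were called and 8.92% were called lower. The differences were -0.98 ± 0.27 (SE, log2) for fast_mlc1 (adjusted p = 0.0112), -1.13 ± 0.25 for fast_mlc3 (adjusted p = 0.00252) and -0.83 ± 0.26 for Fast_myosin (adjusted p = 0.0238), that is 1.98-, 2.19- and 1.78-fold lower. Without C0-1, fast_mlc3 kept its call (-1.15, adjusted p = 0.00567), while fast_mlc1 (-0.78, adjusted p = 0.0522) and Fast_myosin (-0.68, adjusted p = 0.0889) lost theirs. Without C0-3 the differences were larger, at -1.27, -1.39 and -1.10 for fast_mlc1, fast_mlc3 and Fast_myosin. Within slides, fast_mlc1 was 1.38, 1.61 and 0.46 log2 units lower in F0 than in C0 (differences of -1.38, -1.61 and -0.46) on slides 1, 2 and 3. These values rest on 1, 2 and 2 fasted fish and on 1, 1 and 2 controls, and the control on slide 2 was C0-1. Fast_myosin also lost its call without C0-2 (-0.66, adjusted p = 0.0982), F0-4 (-0.80, adjusted p = 0.0503) or F0-7 (-0.79, adjusted p = 0.0543). With array medians as the scale, 3.56% of tested probes were called lower in place of 8.92%, and only fast_mlc3 of the fast probes was called. Quantile normalization shrank the differences to -0.28 for fast_mlc1 (adjusted p = 0.0833), -0.35 for fast_mlc3 (adjusted p = 0.0437) and -0.02 for Fast_myosin (adjusted p = 0.929). That scaling gives equal ranks the same value on every array. Over the 23 arrays fast_mlc1 ranked at percentiles 99.36 to 99.69 of all probes, fast_mlc3 at 99.56 to 99.95 and Fast_myosin at 99.6 to 99.73. How far such steady ranks alone shrank their differences, here and in the contrasts below, was not tested.

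None of the fast fibre probes passed the threshold after 4 days of refeeding. In RF4 against F0 only the letters-only read was called among the 6 (23.3% of tested probes), and the differences were 0.06 (95% interval -0.47 to 0.58) for fast_mlc1, 0.31 (-0.18 to 0.80) for fast_mlc3 and -0.02 (-0.52 to 0.48) for Fast_myosin. After 11 days fast_mlc3 was 0.64 ± 0.24 (SE) above F0 (adjusted p = 0.0486), where 27% of tested probes were called and 15% were called higher. That call was close to the threshold and held in 11 of 34 alternatives (adjusted p from 0.0021 to 0.149, the highest without RF11-4, where the difference was 0.51). The differences of fast_mlc1 (0.26, adjusted p = 0.481) and Fast_myosin (0.11, adjusted p = 0.777) from F0 were not called.

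After 36 days of refeeding all 3 fast probes were above the fasted level. In RF36 against F0, 3 of the 6 probes were called, all higher, where 32.7% of tested probes were called and 18.2% were called higher. The difference was 0.93 ± 0.27 (SE) for fast_mlc1 (adjusted p = 0.0102), 1.34 ± 0.25 for fast_mlc3 (adjusted p = 0.000318) and 0.82 ± 0.26 for Fast_myosin (adjusted p = 0.0167), or 1.91-, 2.53- and 1.77-fold. Fast_myosin lost its call without RF36-1 (0.75, adjusted p = 0.0524) or RF36-2 (0.74, adjusted p = 0.0584). On slides 1, 2 and 3 the difference of fast_mlc3 was 1.71, 1.19 and 1.24, from 1, 2 and 1 fish of RF36 and 1, 2 and 2 of F0. With slide as a block in the model all 3 fast probes were called. Under quantile normalization the difference of fast_mlc3 was 0.48 (adjusted p = 0.00475), fast_mlc1 was no longer called (0.20, adjusted p = 0.208), and that of Fast_myosin was -0.01 (adjusted p = 0.947), with its sign turned.

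Against the controls, the fast probes were lower in RF4, and fewer of them were called at the later times. In RF4 against C0, 4 of the 6 probes were called, all lower (25.4% of tested probes were called and 9.92% were called lower): fast_mlc1 by -0.93 ± 0.27 (SE), fast_mlc3 by -0.82 ± 0.25, Fast_myosin by -0.85 ± 0.26 and the letters-only read. In RF11 against C0, 20.7% of tested probes were called and 6.71% were called lower. Of the fast probes, only Fast_myosin was called (-0.72 ± 0.26, adjusted p = 0.0479), with fast_mlc1 at -0.72 (adjusted p = 0.0569) and fast_mlc3 at -0.49 (adjusted p = 0.169). With array medians as the scale, none of the 6 was called in either contrast (limma; 1 of 6 in RF4 and 0 of 6 in RF11 had an unadjusted p under 0.05), and 2.41% and 1.47% of tested probes were called lower. Under quantile normalization none of the 3 fast probes was called in either contrast (-0.29 to -0.04 in RF4), and that of fast_mlc3 in RF11 was 0.16. Without C0-1 the RF4 difference of fast_mlc3 was called (-0.84, adjusted p = 0.0356), whereas those of fast_mlc1 (-0.72, adjusted p = 0.0657) and Fast_myosin (-0.70, adjusted p = 0.072) were not. Without it the RF11 differences were -0.52, -0.51 and -0.57 for fast_mlc1, fast_mlc3 and Fast_myosin, and none was called (adjusted p from 0.163 to 0.227). Without C0-2 none of the fast probes was called in either contrast (adjusted p from 0.0548 to 0.0973 in RF4). Without RF4-5 or C0-4 the RF4 difference of fast_mlc3 was not called (adjusted p = 0.0523 and 0.0509). The RF11 call of Fast_myosin held in 8 of 34 alternatives (adjusted p from 0.00538 to 0.457). Without C0-3 all 3 fast probes were called in RF11 as well, at -1.02, -0.75 and -0.99.

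No probe of the 6 was called in RF36 against C0 by limma (0 of 6 at an unadjusted p under 0.05), where 12.5% of tested probes were called. The differences were -0.05 (95% interval -0.63 to 0.53) for fast_mlc1, 0.20 (-0.35 to 0.76) for fast_mlc3 and -0.01 (-0.57 to 0.55) for Fast_myosin. Without C0-1 the differences were 0.15, 0.18 and 0.15 (adjusted p from 0.778 to 0.823). The intervals with all controls allow fast_mlc1 to be lower by as much as their bound of -0.63 and fast_mlc3 to be higher by as much as 0.76. The contrasts with F0 share the fasted fish and those with C0 share the controls, so the values of the contrasts are not independent of one another.

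**Figure D3:**
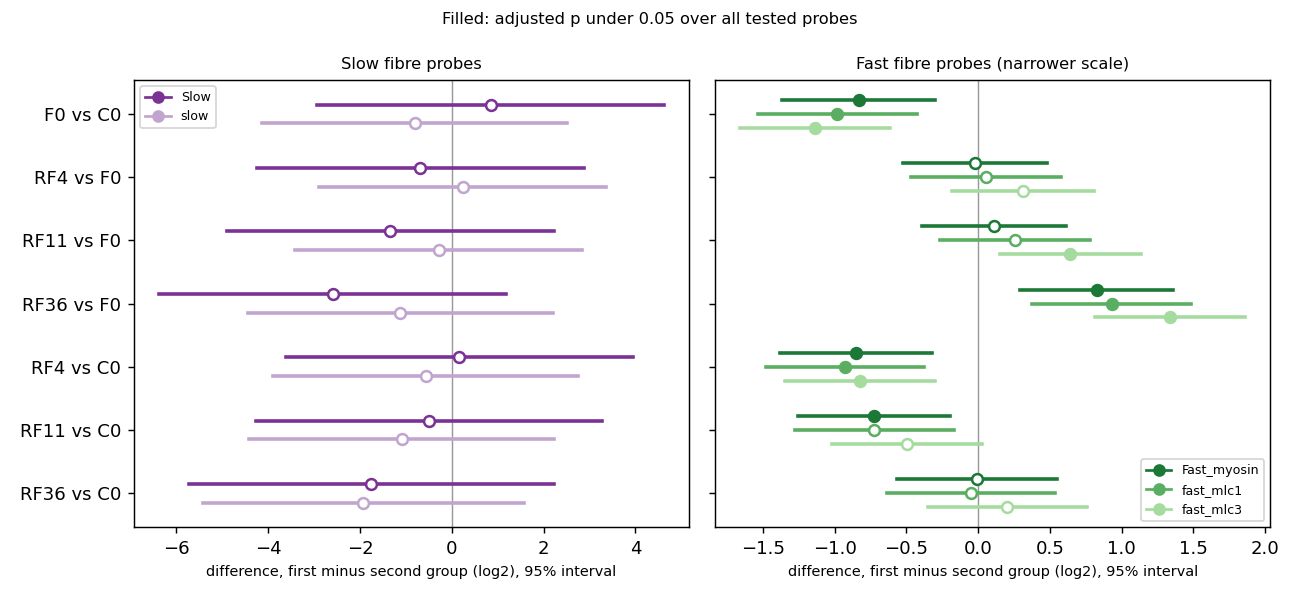
Difference between groups (log2, first minus second group) with its 95% interval from the limma model of all 5 groups, for the slow probes on the left and the fast probes on the right, on scales that differ; filled points have an adjusted p under 0.05 over all tested probes. No slow probe is filled in any contrast, whereas the fast probes are filled and lower in F0 against C0 (-0.83 to -1.13) and filled and higher in RF36 against F0 (0.82 to 1.34), where Fast_myosin turns to -0.01 under quantile normalization.

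The letters-only read, FYV3OTN01AFAST.s.om.10, had another course, with levels of 2.06 to 2.43 in F0, 1.08 to 1.84 in RF4, 1.10 to 1.68 in RF11, 1.51 to 2.09 in RF36 and 1.84 to 2.37 in C0, and it was lower in RF4 than in F0 by -0.87 ± 0.17 (SE, adjusted p = 0.000588).

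The signals of both light chain probes were also set against each other within each fish, as a description with no test. The gap between fast_mlc3 and fast_mlc1 within a fish has no meaning at zero, since it depends on how each probe binds. Differences in it between fish show unequal change in signal, and the scaling of an array cancels in it. Whether the transcripts themselves changed unequally was not tested. The gap was 0.33 to 0.56 in F0, 0.53 to 0.87 in RF4, 0.68 to 1.06 in RF11 and 0.70 to 0.94 in RF36. F0 did not overlap with RF11 or RF36, and the mean rose from 0.45 ± 0.10 (SD, n = 5) in F0 to 0.86 ± 0.11 (SD, n = 4) in RF36. In C0-2, C0-3 and C0-4 it was 0.88, 0.71 and 0.89, while in C0-1 it was -0.07, below that of all other fish. The gap was looked at after its values were seen and was not tested. Under quantile normalization (0.41 to 0.63 in F0 against 0.64 to 1.01 in RF36) and normexp background correction (0.39 to 0.70 against 0.84 to 1.05) F0 and RF36 did not overlap either. How many pairs of probes separate groups in this way was not counted, so nothing is read from this separation.

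**Figure D4:**
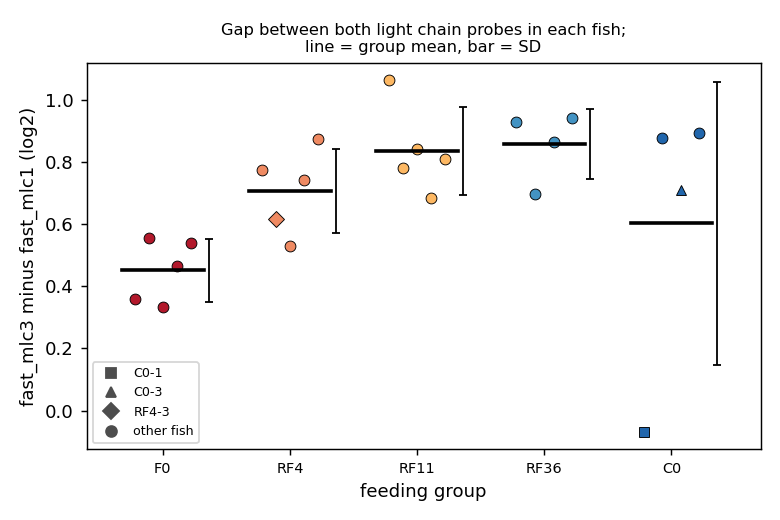
Level of fast_mlc3 minus level of fast_mlc1 in each fish (log2) by feeding group, with the group mean as a line and the SD as a bar. F0 lies at 0.33 to 0.56, below all RF11 and RF36 fish, and C0-1 lies apart at -0.07.

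Deviations of each fish from the mean of its group were then compared between probes. Those of Slow and slow went together (r = 0.96, rho = 0.92, n = 23 fish), and still did without C0-3 and RF4-3 (r = 0.88, rho = 0.87, n = 21). Those of the 3 fast probes also went together, with r from 0.85 to 0.96 over the 3 pairs. The mean of both slow probes and the mean of the 3 fast probes had r = -0.36 (rho = -0.26, n = 23), and this rested on C0-3, the fish with the highest slow and, among controls, the lowest fast levels. Without C0-3 r was 0.08 (rho = -0.04, n = 22), and without RF4-3 as well it was 0.04 (n = 21). RF11-4 was the highest of its group on all 3 fast probes and on both slow probes. These correlations are descriptions over fish that share arrays and scaling, with no test. With the mean slow level of each fish as a covariate in the model, the F0 differences from C0 were -0.98 for fast_mlc1 (adjusted p = 0.00892), -1.13 for fast_mlc3 (adjusted p = 0.00202) and -0.83 for Fast_myosin (adjusted p = 0.019). The mean slow level was 0.88 in F0 and 0.86 in C0. The covariate could therefore hardly move this contrast, and nothing is read from its stability. In RF36 the mean slow level was -0.98. There the covariate changed the differences from F0 from 0.93 to 0.84 for fast_mlc1. For fast_mlc3 they went from 1.34 to 1.25, and for Fast_myosin from 0.82 to 0.73.

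**Figure D5:**
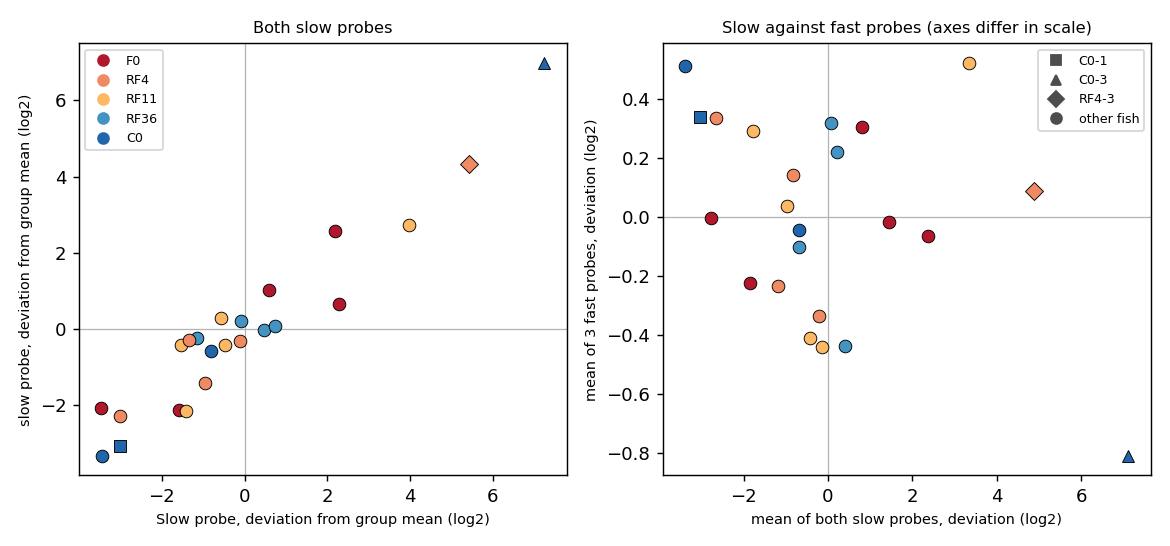
Deviation of each of the 23 fish from the mean of its feeding group (log2), for slow against Slow on the left and for the mean of the 3 fast probes against the mean of both slow probes on the right, where the axes differ in scale. The slow probes rise together (r = 0.96), while the relation on the right (r = -0.36) rests on C0-3 at the lower right and is 0.08 without it.

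A set of further probes shared the fish-to-fish pattern of the slow probes. Of the other 34194 tested probes, 34 had deviations with r above 0.9 to the mean of both slow probes (0.90 to 0.99), and the median over all was 0.00. All 34 were highest in C0-3, and 11 of them had the same 6 highest fish as Slow and slow; no tested probe outside these 11 and the slow probes themselves (13 in all) did. Without C0-3 and RF4-3, 16 of the 34 kept r above 0.9 and the lowest was 0.75. Without C0-1, 33 of 34 kept it. Their spread within groups was 1.5 to 3.36 log2 units, and 26 of the 72 tested probes with a spread over 2 were among them. None of the 34 was called across the 5 groups (45.8% of all tested probes were) or in any of the 7 contrasts, and since they were picked for following probes of very large spread within groups, nothing is read from that count. None carries a gene name in the files used here. Of the named probes, 1 had r above 0.8: a probe named for TBRG4, a mitochondrial RNA-binding protein in mammals (r = 0.82, 0.66 without C0-3 and RF4-3), singled out after its value was seen.

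Likeness over the 23 arrays was measured against 1098 named probes, most of which carry a name because the study's own test of these same fish put them in its heat map, with the names of their closest proteins in other species. The 5 named probes most like the mean of the slow probes were L-3-hydroxyacyl-CoA, a name cut short (r = 0.63), calpain_2 (r = 0.61), Kdr, a vascular endothelial growth factor receptor (r = 0.49), and Acadm and Acads, acyl-CoA dehydrogenases of mitochondrial fatty acid oxidation (r = 0.48 for each). The 5 most like the mean of the fast probes were a pair of probes for COL5A1, a chain of type V collagen (r = 0.85 and 0.84), act-2b, an actin (r = 0.84), col1a2, a chain of type I collagen (r = 0.79), and ACTA1, the actin of skeletal muscle thin filaments (r = 0.78). These r include differences between feeding groups. Over deviations from group means, r was 0.53 to 0.72 for these 5 and 0.57 to 0.67 for the 5 most like the slow probes. The r of the TBRG4 probe above was also over deviations.

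Other genes of the contractile apparatus were taken from a list of 49, of which 13 had a named and tested probe, again mostly named through the heat map, so that their calls across groups are not independent evidence. In F0 against C0, 9 of the 13 were lower and 2 higher, with a median difference of -1.33 (0.00 over all tested probes, of which 20.3% were called and 8.92% were called lower). Without C0-1 the counts were the same and the median was -1.53. All 4 thin filament genes fell, ACTA1 by -1.12, TNNC2, the calcium-binding troponin of fast fibres, by -2.09, TNNI3 by -1.72 and TPM1 by -1.66, and so did PVALB, the calcium buffer parvalbumin (-1.77). TCAP, a Z disc protein that caps titin, rose (2.20). In RF4 against F0, where 23.3% of tested probes were called, 2 of the 13 were higher (TPM1 and the M-band protein MYOM2) and 2 lower, among them MYOZ1, a Z disc protein. By RF11 against F0, where 27% were called, 9 were already higher and 2 lower, with a median of 1.57 (-0.07 over all tested probes). At that time fast_mlc1 and Fast_myosin were not called. In RF36 against F0, where 32.7% were called, 9 were higher and 2 lower, with a median of 2.04 (0.00 over all tested probes). None was called by limma in RF36 against C0, where 12.5% were called, and 1 (TPM1) was called higher without C0-1. Over fish, their deviations had r from -0.58 (TPM1) to 0.11 (TCAP) with the mean slow deviation. With the mean fast deviation r ran from -0.48 to 0.55 (ACTA1).

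For the genes listed only as markers of slow muscle, fat and skin, no named and tested probe was found. The slow probes were set beside the 13 contractile genes above, where r did not exceed 0.11. They could not be set beside genes listed only for slow muscle. MYL3, whose slow form was listed as a slow muscle marker, was measured and counted among the 3 thick filament genes. All 3 of these genes were called lower in F0 against C0, where 20.3% of tested probes were called. In RF36 against F0, where 32.7% were called, all 3 were called higher, so both contrasts had the directions of the fast probes. The measured markers, too, come from probes mostly named through the heat map, so their calls across groups are not independent evidence. The connective tissue markers COL1A1, COL1A2 and POSTN (3 of 3 measured) were called lower in F0 against C0 (3 of 3, also without C0-1). In that contrast 8.92% of tested probes were called lower. In RF36 against F0, where 18.2% of tested probes were called higher, COL1A1, COL1A2 and POSTN were called higher (3 of 3). Both contrasts thus had the directions of the fast probes. These 3 markers differed from the fast probes in RF4 against F0, where 2 of 3 were called higher (median 1.32) and 23.3% of tested probes were called. Their summed level was 8.93 to 13.6 in F0, 12.7 to 15.9 in RF4, 15.2 to 17.7 in RF11, 18.4 to 19.6 in RF36 and 16.6 to 19.1 in C0 (17.6 to 19.1 without C0-1), and their part in the result was not tested. The other measured markers also differed between groups. CA1, a carbonic anhydrase of red blood cells, differed by -1.0 in F0 against C0 and by 2.37 in RF36 against F0, and MYH11, a smooth muscle myosin heavy chain, by 2.12 and -2.33, all called by limma. Without C0-1 the F0 differences from C0 were -1.14 for CA1 and 1.98 for MYH11, both called. The part of these markers in the results was not tested. Over fish, the 5 markers of other cell types that were measured (those 3, CA1 for blood and MYH11 for smooth muscle) had r of 0.01 to 0.30 with the slow deviations. In C0-3 they lay between 0.09 below and 0.62 above the mean of the other controls (log2 differences of -0.09 to 0.62), against 9.66 for Slow and 9.31 for slow.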

How the data were processed

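The authors extracted RNA with TRIzol, labelled it with Cy3, hybridised it to a 1-colour Agilent array and quantified spots with Agilent Feature Extraction 10.7.3.1. The deposited scanner files hold the intensity of each spot as a background-corrected processed signal, which is what was used. The authors also deposited log2 values scaled with GeneSpring, which equalled log2 of the processed signal plus a constant per array. The median of these deposited values was 6.093 on all 23 arrays.

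The log2 of the processed signal, averaged over spots of a probe and with 145 outlier-flagged spots and 137 probes with a missing value left out, was centred on the array's 75th percentile. Probes well above background on 4 or more arrays of a group were tested (34200 of 60195). limma 3.58.1 in R 4.3.3 fitted 5 group means. The model was tested on simulated data. Depth has no meaning for arrays, and their number limits the precision. Labels name separate fish.

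All slow and fast members are named. For a listed gene with several probes the brightest was taken, and 1 gene that enters the list counts is not reported here. The members, gene lists and markers were chosen with earlier results of these data known. Likeness is Pearson's r over 23 arrays, and the 5 highest named probes of each kind are given. Alternatives were array median scaling, quantile normalization, normexp (offset 50), the deposited values, other filters, sample number or slide as a block, the groups compared alone, the methods' ANOVA, and each array left out. The deposited values amount to median scaling, so they add no independent alternative. Leaving out C0-3 with RF4-3, and the slow level as a covariate, were added after seeing the data. Where a fit leaves out an array, the other 22 entered it.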

Additional observations from a re-analysis of the deposited data

Results flagged for a closer look

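In RF11 the level of Slow in RF11-4 (5.20) lay far from the other 4 fish (-0.30 to 0.77), with a gap to the nearest of them that took 0.805 of the range of the group. It was the only such value in 30 combinations of a probe and a group, and chance alone marks about 1 in 20.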

How the results depend on the processing

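The cause of the changes below was not tested. This holds also for the filters, which change both the probes that enter the fit and how many share the adjustment. The slow probes were called in none of the 32 or 33 alternatives that could be run for them. Over 34 alternatives the letters-only read kept its RF4 and RF11 calls against F0, while fast_mlc3 kept its F0 call against C0 and its RF36 call against F0. Across the 5 groups, 4 probes were called, 3 with median scaling and with the deposited values, and 2 with quantile normalization and with the sample number as a replicate block (4 to 4 with an array left out). In F0 against C0 the count of 3 became 1 with median scaling, quantile normalization, the deposited values, the replicate block and only the groups compared (1 to 3 with an array left out). In RF11 against F0 the count of 2 became 1 with median scaling, the deposited values, no filter, the replicate block, slide as a block, only the groups compared and the slow covariate (1 to 2 with an array left out). In RF36 against F0 the count of 3 became 1 with quantile normalization, where the Fast_myosin difference turned to -0.0103, and with the replicate block (2 to 3 with an array left out). In RF4 against C0 the count of 4 became 0 with median scaling, the deposited values, the replicate block and only the groups compared, and 1 with quantile normalization (1 to 4 with an array left out); 1, 1, 4 and 4 of the 6 then had an unadjusted p under 0.05 in limma. In RF11 against C0 the count of 2 became 0 with median scaling, the deposited values and only the groups compared (0, 0 and 3 at an unadjusted p under 0.05), 1 with quantile normalization, normexp, no filter and the replicate block, and 4 without C0-3 and RF4-3 (0 to 4 with an array left out). In RF4 against F0 (1) and RF36 against C0 (0) no count changed. Sample numbers were not taken as pairing the fish, as the labels name separate fish. Even so, deviations of same-numbered fish had r above 0.1 in 17 of 33 pairs (-0.32 to 0.35). Their median r was 0.108 against -0.01 for other pairs, and whether same-numbered fish share a source of spread was not tested. Median scaling moved the median difference of all tested probes by 0.19 in F0, 0.28 in RF4 and 0.33 in RF11 against C0, and relative to that median the differences of the probes were those of the main scaling. It moved the lower share of calls from 43.8% to 23.1% in F0, from 39.0% to 11.1% in RF4, from 32.5% to 6.79% in RF11 and from 25.8% to 8.70% in RF36 against C0, and from 41.6% to 30.0% in RF4 and from 44.4% to 29.4% in RF11 against F0; normexp gave 56.0%, 54.6% and 15.7% in RF4, RF11 and RF36 against C0. Signal over background limits slow, which was not well above background on 8 of 23 arrays.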
